A study of Mus musculus with 2 samples.

Results

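Lysosomal acidification and hydrolase genes were followed across the leukocytes of brown adipose tissue (BAT). They comprised 58 of the 32285 genes counted in both single-cell libraries. Each member was taken by its symbol. The 26 proton pump genes are all genes whose symbol starts with Atp6v or Atp6ap, and a written list gave 21 hydrolases and hydrolase cofactors, 7 lysosomal membrane proteins and 4 regulators of the TFE family. In all cells kept, 4 pump genes (*Atp6v1b1*, *Atp6v1c2*, *Atp6v1e2* and *Atp6v1fnb*) had 0 counted transcripts, and 4 others had between 1 and 10 (*Atp6ap1l*, *Atp6v0a4*, *Atp6v0e2* and *Atp6v1g3*). The remaining 50 members had at least 20 each, and 49 of these had at least 20 in macrophages.

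Lysosomes digest material taken up from outside the cell and material delivered by autophagy. Their acid interior is made by the vacuolar ATPase, a rotary pump with a cytosolic sector that splits ATP and a membrane sector that carries protons, and this pump is shared with endosomes, secretory granules and the plasma membrane of bone-resorbing cells. Acid hydrolases then break down lipids, glycans and proteins, while the transcription factors TFEB, TFE3, TFEC and MITF are known to activate many of the genes for the pump and the hydrolases. Macrophages of adipose tissue are rich in lysosomes, in which they degrade the lipid of dying adipocytes.

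The study asked how leukocytes of BAT change when adipocytes lack adipose triglyceride lipase (ATGL), the enzyme that starts lipolysis. CD45+ DAPI- cells were sorted from the BAT of male C57Bl/6 mice, aged 16 weeks per the labels while the study's text gives a younger age, and 1 droplet library per group was sequenced from the 3′ end of transcripts with unique molecular identifiers (UMIs). Per the labels both groups carried the same alleles, AdipoQ-CreERT2 and ATGLfl/fl, and differed in the injection only, while the study's text can be read as giving C57Bl/6 controls. Control mice received vehicle, and AdipoΔ/Δ mice received tamoxifen at 10 mg/ml, in 200 µL every 2 days over 1 week, followed by 2 weeks of rest. The number of mice behind each library was not given in the sources used here. The adiponectin promoter drives the Cre in adipocytes, so the sorted leukocytes are not the cells in which the gene is deleted. *Pnpla2*, which encodes ATGL, had a level of 37.1 CPM in control leukocytes and 42.2 CPM in AdipoΔ/Δ leukocytes. This level checks neither label. Tamoxifen and the loss of ATGL cannot be told apart in this design, and neither can be told apart from other differences between the 2 libraries.

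After filtering, 2279 control cells with a median of 3678 UMIs and 2016 AdipoΔ/Δ cells with a median of 3942 UMIs remained, and the libraries shared 4 cell barcodes. Joint clustering without the 58 members and the genes that the study names gave 18 clusters, of which 15 were named from marker genes and 3 stayed unnamed. Macrophage-like cells numbered 171 in control and 439 in AdipoΔ/Δ mice. They fell into a lipid-associated subset (12 and 87 cells), an M2-like subset (109 and 178) and a matrix subset (50 and 174). A total of 28300 UMIs stood behind the 12 control cells of the lipid-associated subset. A single cell gave 8709 of these, and many genes had few UMIs there. The matrix subset was named from its own markers, at 23089 and 26430.4 CPM in sum. Its summed general macrophage markers, at 1775 and 1479 CPM, were below the 9179 and 16628 CPM of the M2-like cells. An unnamed cluster led by *Gdf3* and *Lpl*, with 23 control and 152 AdipoΔ/Δ cells of low depth, was kept apart. Adipocyte markers summed to at most 47.5 CPM in any macrophage subset, and endothelial or stromal markers to at most 279.8 CPM.

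Levels in CPM are the UMIs of a gene summed over the cells of a class in a library, divided by all UMIs of those cells and scaled to 1000000. With 1 library per group no value has an error between mice, no test between groups was possible, and the exact 95% intervals in parentheses cover counting error only. UMIs count molecules and were not scaled by transcript length, and shares of UMIs between genes are given as such. Levels of macrophage genes in lymphocytes show what is counted in cells that should hold little of them. For *Psap* this level was 165 and 175 CPM in T cell-like cells, and for *Cd68* it was 5.01 and 13.6 CPM. The part of free RNA in the results was not tested.

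Promoters of the members were searched for the letters that TFE factors are known to bind, CACGTG and its longer forms. RefSeq windows on GRCm38.p6, from 250 bases before to 50 bases after the start, were available for 49 members and for 27025 genes in all. CACGTG stood in the window of 11 members (22.4%) and of 8.09% of all genes, and TCACGTGA, which contains it, in 5 members (10.2%) and 1.12% of all genes. The related TCATGTGA stood in 4 members (8.16%) and 1.15% of all genes. Its core CATGTG stood in 6 members (12.2%) and 15.9% of all genes, and the longer CLEAR palindrome, which extends TCACGTGA by a base on each side, in 0 members and 0.370% of all genes. The members are all protein-coding. Over the 17491 protein-coding genes alone the shares were 8.91% for CACGTG, 1.41% for TCACGTGA, 1.00% for TCATGTGA, 13.2% for CATGTG and 0.469% for the palindrome. Both strands were searched, and a match is a description of letters, not a bound site. Windows of 5 members are shown, chosen because they hold TCACGTGA, TCATGTGA or at least 2 matches before the start. *Mcoln1* also met this rule and is not shown. No match was found for *Psap*, *Gm2a*, *Hexa*, *Cd68*, *Atp6v0a1* or *Atp6v1c1*, on which the results below also turn. *Atp6v0c* has 3 promoters, and only the one with a match is shown. Windows run to the last base before the start, or to 12 bases past the last match, with CACGTG and CATGTG in capitals.
Atp6v0c: gcggggacagatCATGTGacgcgagcgc
Atp6v0b: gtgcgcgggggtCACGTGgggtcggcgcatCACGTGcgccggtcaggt
Atp6v1a: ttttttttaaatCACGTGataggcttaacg
Lamp1: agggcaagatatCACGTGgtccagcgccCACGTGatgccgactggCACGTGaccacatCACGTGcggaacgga
Gla: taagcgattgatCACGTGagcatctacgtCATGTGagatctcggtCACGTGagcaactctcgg
These stretches lie at chr17:24169451-24169478 (minus strand, *Atp6v0c*), chr4:117887330-117887377 (minus strand, *Atp6v0b*), chr16:44139373-44139402 (minus strand, *Atp6v1a*), chr8:13159088-13159160 (plus strand, *Lamp1*) and chrX:134601182-134601244 (minus strand, *Gla*). The stretches of *Atp6v0c* and *Atp6v1a* lie before the RefSeq start but inside the gene span of the GENCODE annotation. *Lamp1* held 4 matches of CACGTG, *Atp6v0b* held 2, and *Gla* held 2 together with 1 of CATGTG. None of the 4 TFE regulator windows held either core.

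In both libraries the pump, hydrolase and membrane protein sums of macrophage-like and monocyte-like cells were above those of lymphocytes. The pump sum was 6819.8 CPM (5892 to 7853) in control and 5859.9 CPM (5721 to 6001) in AdipoΔ/Δ lipid-associated cells, and 2572 and 3143 CPM in M2-like cells. T cell-like cells held 1005 and 1234 CPM and B cell-like cells 1366 and 1755 CPM. The gap between myeloid and lymphoid cells was wider for the hydrolases, with 5268 and 5389 CPM in M2-like against 547 and 647 CPM in T cell-like cells. Neutrophil-like cells combined a pump sum of 2700.3 and 3196 CPM, close to that of monocyte-like cells, with a hydrolase sum of 1621 and 2515 CPM, well below the 4750.2 and 5183 CPM of Ly6C high monocyte-like cells. The TFE regulators added up to far fewer UMIs, between 23.5 CPM in AdipoΔ/Δ T cell-like and 283 CPM in control lipid-associated cells, which had 8 UMIs.

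**Figure D1:**
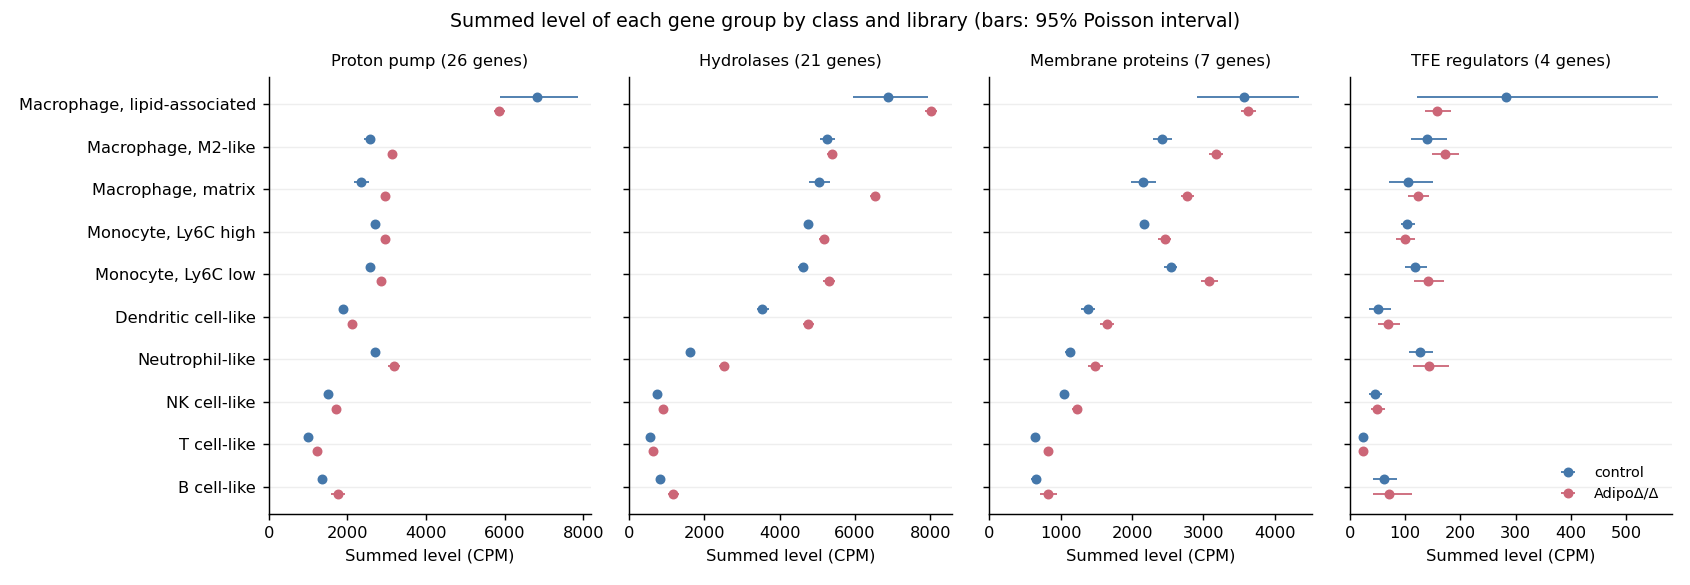
Summed level (CPM, horizontal axes starting at 0) of the 4 gene groups in 10 classes, for the control (blue) and the AdipoΔ/Δ (red) library, with exact 95% Poisson intervals as bars. The pump sum of the lipid-associated macrophages lies to the right of all other classes in both libraries, while neutrophil-like cells stand near the monocytes for the pump and between monocytes and lymphocytes for the hydrolases.

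In control macrophage-like cells, 12 of the 50 members tested were at least 2-fold above all other cells, against 10.1% of all genes tested, and 0 were at least 2-fold below them, against 21.6%. In AdipoΔ/Δ macrophage-like cells 23 members were at least 2-fold above (all genes, 9.49%) and 2 at least 2-fold below (all genes, 21.4%), the latter *Atp6v1g2* and *Arsb*. By group the 23 higher members were 8 of 18 pump genes, 10 of 21 hydrolases, 3 of 7 membrane proteins and 2 of 4 TFE regulators. *Atp6v0d2* is among these pump genes and was tested only because of AdipoΔ/Δ macrophage-like cells, which held 159 of its 165 UMIs. The median member ratio was 1.51 in control and 1.83 in AdipoΔ/Δ mice, and that of all genes 0.906 and 0.876. Without the lipid-associated cells the AdipoΔ/Δ count was 7 (all genes, 7.30%). The control count was 6 (all genes, 14.5%) with the stricter mitochondrial limit of 2% that the study states, which left 32 control macrophage-like cells.

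Within the macrophages, most pump genes were highest in the lipid-associated subset. In the AdipoΔ/Δ library 15 of the 17 pump genes tested were highest there among the 3 subsets, as were 27 of all 49 members, against 32.4% of all genes. In control cells 12 of 17 pump genes and 24 of 49 members were highest in this subset, against 28.4% of all genes. The control count is weak. *Gaa* and *Glb1* were highest there at 35.3 CPM and *Scarb2* at 70.7 against 70.3 CPM, below the 106 CPM that 3 UMIs give in these cells. *Atp6v0d2* had 0 UMIs in each control subset. Genes with few UMIs often have 0 there and then cannot be highest, so the share of all genes is not a like comparison. The summed pump level of the lipid-associated cells was 1.92 (1.86 to 1.99) times that of the other macrophage-like cells in the AdipoΔ/Δ library and 2.73 (2.34 to 3.16) times in the control library. Of 49 members, 8 were at least 2-fold above the other AdipoΔ/Δ macrophage-like cells (all genes, 7.17%) and 3 at least 2-fold below (all genes, 16.9%). The 8 higher members were 5 pump genes, with *Atp6v0d2* again among them, *Cd68*, *Gla* and *Mitf*. The 3 lower members were the hydrolases *Ids*, *Arsb* and *Smpd1*. *Atp6v0d2* reached 20 UMIs only through the AdipoΔ/Δ lipid-associated cells, with 144 there, 12 in M2-like, 3 in matrix and 0 in control macrophages. Its calls here follow from that filter, and it is also among the 15 pump genes and 27 members highest in this subset. In the AdipoΔ/Δ library the lipid-associated cells were also the deepest, with a median of 12087 UMIs against 5762.5 in M2-like and 5807.5 in matrix cells. In the control library they were the shallowest, with a median of 1321 UMIs against 3509 and 3819, beside the pump ratio of 2.73. The AdipoΔ/Δ count of 27 members highest in this subset stayed between 24 and 29 under the 12 alternatives run for it. The part of depth in the result was not tested beyond these values.

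*Atp6v0c* (chr17:24163866-24169702) encodes the proteolipid that forms most of the ring in the membrane sector. Its level was 2756 CPM (2179 to 3439.8) in control and 1675 CPM (1602 to 1752) in AdipoΔ/Δ lipid-associated cells, 547 and 749 CPM in M2-like cells, and 381 and 603 CPM in matrix cells. In the AdipoΔ/Δ library the lipid-associated level was 2.49 (2.33 to 2.66) times that of the other macrophages. *Atp6v0e* and *Atp6v0b* encode further small proteins of the membrane sector, the latter a ring component. *Atp6v0e* was at 954 and 593 CPM in lipid-associated and at 285 and 323 CPM in M2-like cells. *Atp6v0b* was at 389 and 541 CPM in lipid-associated and at 331 and 366 CPM in M2-like cells, and in the control library its intervals in these subsets overlapped.

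In the cytosolic sector, *Atp6v1a* encodes the catalytic subunit and *Atp6v1c1* a subunit that joins the sectors. *Atp6v1a* was at 389 CPM (194 to 695) and 302 CPM (271 to 336) in lipid-associated cells, at 72.2 and 134 CPM in M2-like cells and at 50.8 and 84.3 CPM in matrix cells. *Atp6v1c1* was at 141 CPM (38.5 to 362), from 4 UMIs, and 159 CPM (137 to 184) in lipid-associated cells, and at 45.6 and 57.2 CPM in M2-like cells. In the AdipoΔ/Δ library the ratio of lipid-associated to other macrophages was 2.81 (2.39 to 3.31) for *Atp6v1a* and 2.88 (2.30 to 3.62) for *Atp6v1c1*. The other pump genes with enough UMIs were above the other macrophages by a smaller ratio, from 1.10 for the accessory gene *Atp6ap1* to 1.91 for *Atp6v1g1*, apart from the a and d subunit genes below. The exception to this direction was *Atp6v0a2*, at 0.615 (0.407 to 0.906). *Atp6v1b2*, which encodes the B subunit, was high in lipid-associated cells (386 CPM in the AdipoΔ/Δ library) and matrix cells (276 and 271 CPM in control and AdipoΔ/Δ mice), and was lower in M2-like cells (101 and 173 CPM).

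**Figure D2:**
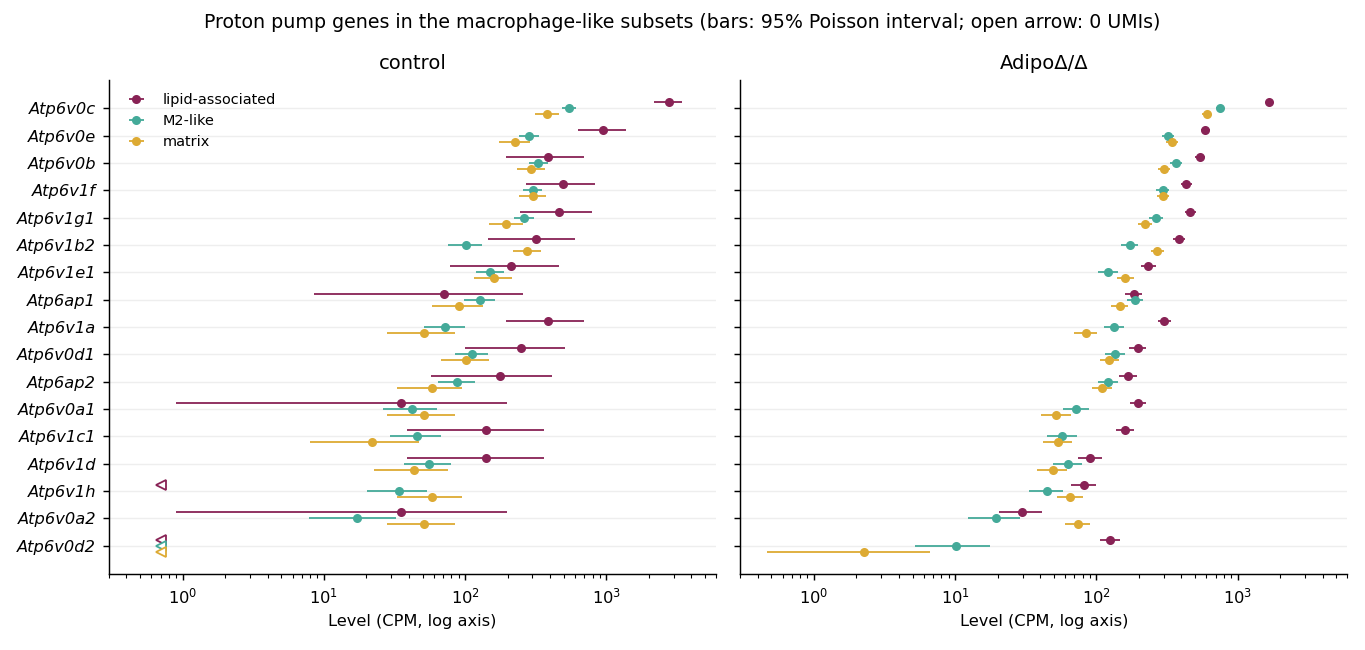
Level (CPM, log axis) of the 17 pump genes with at least 20 UMIs in macrophage-like cells, by subset, in the control (left) and the AdipoΔ/Δ (right) library. Points carry exact 95% Poisson intervals, and open arrows mark 0 UMIs. In the AdipoΔ/Δ library the lipid-associated points lie to the right of the others for 15 genes, *Atp6ap1* and *Atp6v0a2* being the exceptions, and *Atp6v0d2* has 0 UMIs in every control subset.

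Some pump subunits are encoded by several paralogs, and the shares of the paralogs differed between classes for subunits a and d. *Atp6v0d2* (chr4:19876841-19922605), a d subunit gene known from osteoclasts, had 0 UMIs in all control cells and 165 UMIs in the AdipoΔ/Δ library, of which 144 came from 32 of 87 cells of the lipid-associated subset, with at most 16 from 1 cell. Its AdipoΔ/Δ level was 125 CPM (106 to 147) in lipid-associated, 10.1 CPM (5.21 to 17.6) in M2-like and 2.26 CPM (0.466 to 6.60) in matrix cells. Within that library the lipid-associated level was 21.0 (12.3 to 38.5) times that of the other macrophages. No T, B or NK cell-like or neutrophil-like cell held a UMI of it, among them 0 of 283 AdipoΔ/Δ T cell-like cells, whose median depth was 3883 UMIs. The control lipid-associated cells were 12 in number and shallow, with a median of 1321 UMIs against 12087 in AdipoΔ/Δ mice, so that their 0 UMIs do not show that the gene was not expressed. In all macrophage-like cells, with 159 AdipoΔ/Δ and 0 control UMIs, the lower limit of its AdipoΔ/Δ over control ratio was 9.64 by the exact binomial interval, and its level was 12.0 times the level that 3 UMIs give in the control cells. In the lipid-associated subset alone, 0 control UMIs allow a level of up to 130.3 CPM and the lower limit of the ratio was 0.948, so that a difference between the libraries was not detectable there at this depth. When each cell was thinned to 1000 UMIs, 8 of 86 lipid-associated AdipoΔ/Δ cells and 0 of 11 control cells held a UMI. Among the UMIs of both d paralogs, *Atp6v0d2* made up 38.9% (33.9 to 44.1) in AdipoΔ/Δ lipid-associated cells, 6.90% in M2-like and 1.80% in matrix cells. *Atp6v0d1* made up the rest, at 196, 136 and 123 CPM.

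Subunit a anchors the pump and directs it to different membranes. *Atp6v0a1* (chr11:101009452-101063719) was at 198 CPM (173 to 226) in AdipoΔ/Δ lipid-associated cells, 3.22 (2.61 to 3.97) times the level of the other macrophages, and the control cells of this subset held 1 UMI. *Tcirg1*, which encodes the a3 subunit and is not among the 58 members by its symbol, was there at 2.83 (2.25 to 3.56) times the level of the other macrophages. Among the UMIs of the a paralogs in AdipoΔ/Δ lipid-associated cells, *Atp6v0a1* made up 51.9%, *Tcirg1* 40.3% and *Atp6v0a2* 7.74%. Matrix cells had another make-up, with 35.9% of a UMIs from *Atp6v0a2* in control and 41.9% in AdipoΔ/Δ mice, and in the AdipoΔ/Δ library their *Atp6v0a2* level was 3.82 (2.40 to 6.30) times that of M2-like cells. NK cell-like cells drew 72.5% and 68.8% of a UMIs from *Atp6v0a2*, and neutrophil-like cells 62.1% and 54.5% from *Atp6v0a1*. These shares held the same order in both libraries for neutrophil-like and NK cell-like cells. For the other subunits with paralogs 1 gene held nearly all UMIs. Of the G subunit genes, *Atp6v1g1* was at 247 and 312 CPM and *Atp6v1g2* at 2.41 and 1.36 CPM in macrophage-like cells, and neutrophil-like cells held the most *Atp6v1g1*, at 729 and 669 CPM. *Atp6v1g3* had 10 UMIs in all, each in NK cell-like cells.

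**Figure D3:**
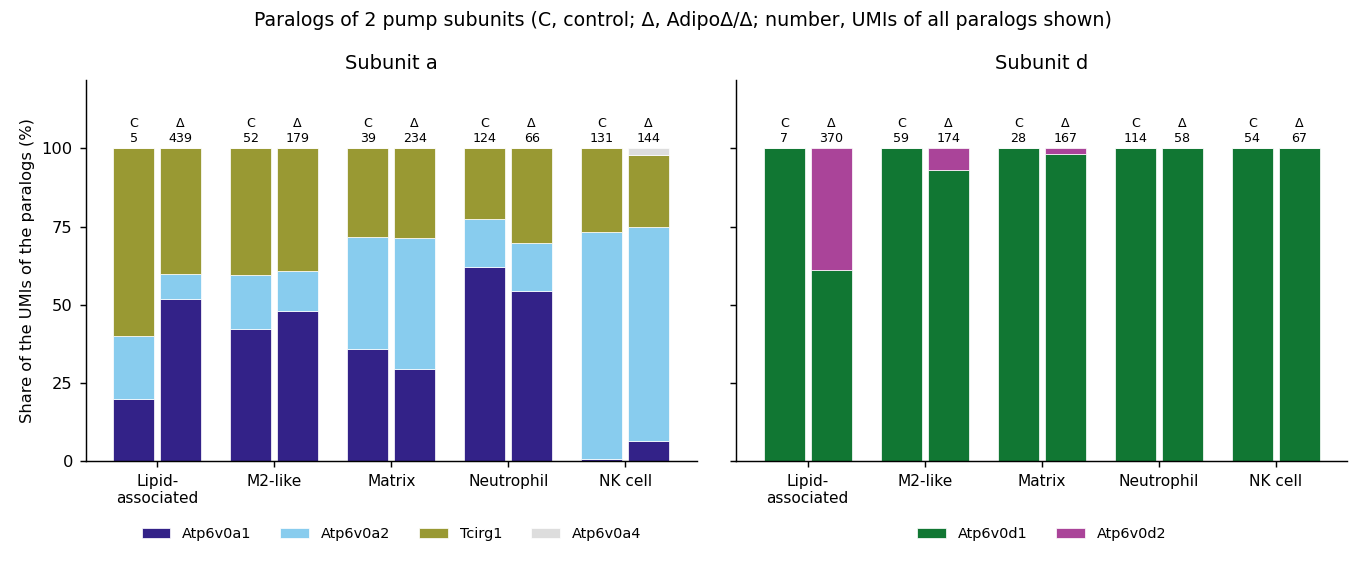
Share (%) of the UMIs of subunit a (left) and subunit d (right) paralogs that each paralog holds, by class and library. Letters C and Δ mark control and AdipoΔ/Δ, and the numbers above the bars are the UMIs of all paralogs shown. *Atp6v0d2* takes 38.9% of d UMIs in AdipoΔ/Δ lipid-associated cells and 0% in every control bar, and *Atp6v0a2* leads in NK cell-like cells.

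The hydrolases as a group differed less between the subsets than the pump. Their sum in AdipoΔ/Δ lipid-associated cells was 1.34 (1.30 to 1.37) times that of the other macrophages, and 0.949 (0.907 to 0.993) times without *Psap*, which held 62.6% of hydrolase UMIs in AdipoΔ/Δ and 61.1% in control macrophages. *Psap* (chr10:60277627-60302597) encodes prosaposin, the precursor of the saposins that present sphingolipids to their hydrolases. Its level was 5159 CPM (4356 to 6067) in control and 5629 CPM (5492 to 5767) in AdipoΔ/Δ lipid-associated cells, 3192 and 2849 CPM in M2-like cells, and 3049 and 4029 CPM in matrix cells. Both monocyte classes were at 2953 to 3305 CPM, near the M2-like level in control and above it in AdipoΔ/Δ mice.

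*Gm2a* and *Hexa* act on the same substrate, ganglioside GM2, as activator protein and as alpha subunit of beta-hexosaminidase, and were distributed differently. *Gm2a* was highest in dendritic cell-like cells, at 1231 CPM (1139 to 1328) and 1401 CPM (1318 to 1488), and lower in lipid-associated cells, at 247 and 495 CPM. In matrix cells it was at 762 and 1063 CPM. *Hexa* was highest in macrophages, at 565 and 571 CPM in lipid-associated cells, 272 and 514 CPM in M2-like cells and 167 and 194 CPM in dendritic cell-like cells. Over all other cells, the ratio of *Hexa* in macrophage-like cells was 2.80 (2.42 to 3.23) in control and 3.79 (3.50 to 4.10) in AdipoΔ/Δ mice.

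Other hydrolases were led by classes outside the macrophages, and these examples were chosen after their values were seen. *Arsb* (chr13:93771630-93943016), the arylsulfatase of dermatan sulfate, was at 177 CPM (156 to 200.0) and 178 CPM (156 to 203) in NK cell-like cells and at 20.9 and 26.9 CPM in M2-like cells. *Ppt1*, a thioesterase that removes palmitate from proteins, was highest in neutrophil-like cells, at 165 and 207 CPM, with dendritic cell-like cells next at 152 and 189.9 CPM and overlapping intervals. *Neu1*, a sialidase, was at 91.9 and 87.2 CPM in neutrophil-like cells and at 45.6 and 42.9 CPM in M2-like cells. In contrast, the phospholipase gene *Pla2g15*, the peptidase gene *Tpp1* and the ceramidase gene *Asah1* were higher in macrophage-like cells, at 5.53, 3.48 and 2.21 times the level of all other cells in control and 3.50, 3.58 and 2.64 times in AdipoΔ/Δ mice. Between the M2-like and the matrix subset of the AdipoΔ/Δ library these genes were higher in M2-like cells, with matrix over M2-like ratios of 0.287 (0.173 to 0.459), 0.548 (0.439 to 0.683) and 0.549 (0.458 to 0.657). *Ids*, a sulfatase of heparan and dermatan sulfate, had the opposite pattern, at 1.83 (1.40 to 2.41). Across all 46 members tested, 2 were at least 2-fold above M2-like cells in the matrix subset (all genes, 6.45%) and 5 at least 2-fold below (all genes, 11.2%). The former were *Atp6v0a2* and *Gm2a*, and the latter *Cd68*, *Gaa*, *Idua*, *Ppt1* and *Pla2g15*.

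**Figure D4:**
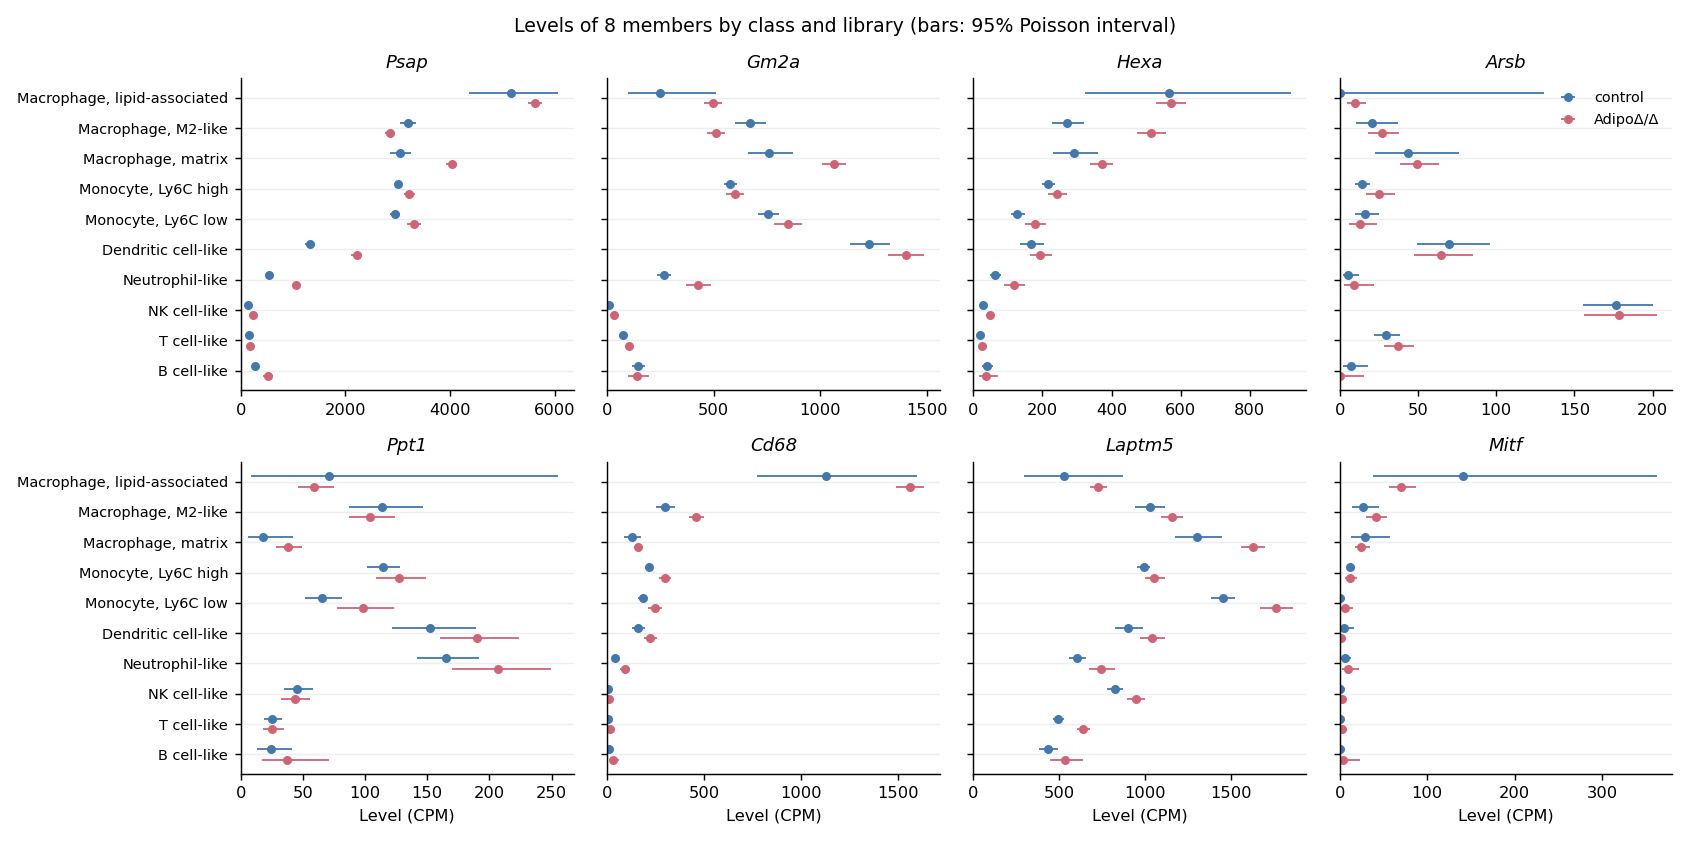
Levels (CPM, horizontal axes starting at 0) of 8 members in 10 classes for the control (blue) and the AdipoΔ/Δ (red) library, with exact 95% Poisson intervals as bars. *Gm2a* is highest in dendritic cell-like, *Arsb* in NK cell-like and *Ppt1* in neutrophil-like cells in both libraries, while *Cd68* and *Mitf* are highest in lipid-associated macrophages, *Mitf* with 4 UMIs in the control cells.

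Of the membrane proteins, *Cd68* (chr11:69664213-69666153), a heavily glycosylated protein of phagocyte lysosomes, was highest in the lipid-associated subset, at 1131 CPM (773 to 1596) in control and 1561 CPM (1489 to 1635) in AdipoΔ/Δ mice. M2-like cells had 298 and 461 CPM, and matrix cells had 127 and 159.6 CPM, below the 218 and 299 CPM of Ly6C high monocyte-like cells. *Laptm5*, whose protein sorts receptors to lysosomes in blood cells, was lower in AdipoΔ/Δ lipid-associated than in the other macrophages, at 0.516 (0.478 to 0.557) times their level. Among the other classes it ran from 43.1 and 49.4 CPM in plasma cell-like cells to 1454 and 1766 CPM in Ly6C low monocyte-like cells. *Lamp1* and *Lamp2* encode the most abundant glycoproteins of the lysosomal membrane. *Lamp1* was at 1343 and 919 CPM in lipid-associated and at 693 and 949 CPM in M2-like cells. The AdipoΔ/Δ intervals of the pair overlapped. *Lamp2* was also found in neutrophil-like cells, at 332 and 387 CPM, beside M2-like cells at 296 and 461 CPM. *Npc1*, which exports cholesterol from lysosomes, was at 86.9 CPM in AdipoΔ/Δ lipid-associated and 70.6 CPM in M2-like cells. The calcium channel gene *Mcoln1* was near the detection limit, at 8.43 and 7.90 CPM in all macrophage-like cells.

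Among the TFE regulators, *Mitf* (chr6:97807052-98021349) had the largest ratio of macrophage-like to other cells, with 31.3 and 44.4 CPM in macrophage-like and 4.43 and 7.71 CPM in all other cells, ratios of 7.06 (4.17 to 11.7) and 5.76 (4.25 to 7.89). In the AdipoΔ/Δ library it was at 70.4 CPM in lipid-associated cells, 2.16 (1.57 to 2.98) times the level of the other macrophages. *Tfe3* had the opposite order there, at 0.557 (0.390 to 0.779). *Tfeb*, the best known activator of lysosomal genes, was spread over classes, with 57.0 and 43.7 CPM in M2-like, 59.1 and 55.8 CPM in Ly6C low monocyte-like, 55.3 and 68.2 CPM in neutrophil-like and 48.9 and 45.7 CPM in B cell-like cells. *Tfec* was rare, with 9.50 and 13.4 CPM in M2-like and 8.03 and 12.0 CPM in Ly6C high monocyte-like cells, and 0 UMIs in lymphocytes and neutrophil-like cells.

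Between the libraries, the pump sum of all macrophage-like cells was 2646 CPM (2537 to 2759) in control and 3929.6 CPM (3866 to 3994) in AdipoΔ/Δ mice, a ratio of 1.48 (1.42 to 1.55). The ratio was 1.26 (1.22 to 1.30) for the hydrolases, 1.34 (1.27 to 1.40) for the membrane proteins and 1.12 (0.913 to 1.39) for the TFE regulators. The make-up of the macrophages differed between the libraries, since lipid-associated cells held 28300 of 830235 macrophage UMIs in control and 1150711 of 3668831 in AdipoΔ/Δ mice. With both libraries weighted to the same subset shares, the pump ratio was 1.05, the hydrolase ratio 1.15 and the membrane protein ratio 1.20. This weighting includes the 12 control lipid-associated cells, and with the subset left out the pump ratio was 1.22. Within the subsets the pump ratio was 1.22 (1.15 to 1.30) in M2-like, 1.26 (1.16 to 1.37) in matrix and 0.859 (0.745 to 0.997) in lipid-associated cells. The part of the subset make-up in the pooled ratios was not tested beyond these values.

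Of the 49 members tested in macrophage-like cells, 19 were at least 1.5-fold higher in AdipoΔ/Δ mice (all genes, 20.9%) and 0 at least 1.5-fold lower (all genes, 9.88%). They were 9 of 17 pump genes, 8 of 21 hydrolases, 2 of 7 membrane proteins and 0 of 4 TFE regulators. The 9 pump genes include *Atp6v0d2*, which had 0 control UMIs and was tested only because of the AdipoΔ/Δ cells. The median ratio of the members was 1.33, and that of all genes 1.09. With the lipid-associated subset left out, 8 members were at least 1.5-fold higher (all genes, 19.1%), and with equal subset shares 10 (all genes, 28.4%). In M2-like cells alone the count was 15 of 46 (all genes, 24.9%) and in matrix cells 15 of 44 (all genes, 23.7%), with 0 and 1 lower (all genes, 9.66% and 8.95%). In lipid-associated cells 13 of 43, *Atp6v0d2* again among them, were higher (all genes, 47.8%) and 7 lower (all genes, 21.6%), with 28300 control UMIs behind these ratios. The share of members called higher was above that of all genes in M2-like and in matrix cells, each taken alone. It was below that of all genes in lipid-associated cells, with that subset left out and with equal subset shares.

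Pump genes with the largest ratios in all macrophage-like cells were *Atp6v0a1*, *Atp6v1a* and *Atp6v1c1*, apart from *Atp6v0d2* with its 0 control UMIs. *Atp6v0a1* was at 44.6 CPM (31.4 to 61.4) and 104 CPM (94.2 to 115), a ratio of 2.34 (1.67 to 3.38), with 1.73 (1.07 to 2.90) in M2-like and 1.02 (0.570 to 1.97) in matrix cells. *Atp6v1a* was at 75.9 CPM (58.3 to 97.1) and 169 CPM (156 to 183), a ratio of 2.22 (1.71 to 2.93), with 1.85 (1.29 to 2.71) in M2-like and 1.66 (0.949 to 3.13) in matrix cells. *Atp6v1c1* was at 41.0 CPM (28.4 to 57.2) and 87.8 CPM (78.4 to 97.9), a ratio of 2.14 (1.50 to 3.15), with 1.25 (0.777 to 2.09) in M2-like and 2.45 (1.07 to 6.91) in matrix cells. The pooled ratio of *Atp6v0a1* and *Atp6v1a* was above that of either subset, and that of *Atp6v1c1* lay between them. The ring gene *Atp6v0c* was above 1 in M2-like cells, at 1.37 (1.20 to 1.57), and in matrix cells, at 1.58 (1.29 to 1.96), and below 1 in lipid-associated cells, at 0.608 (0.485 to 0.772), beside 1.74 (1.58 to 1.92) overall. *Atp6v0e* had 1.13 (0.935 to 1.38) and 1.53 (1.17 to 2.03) in M2-like and matrix cells and *Atp6v0b* 1.11 (0.928 to 1.33) and 1.02 (0.805 to 1.32). In lipid-associated cells *Atp6v0e* was at 0.621, with its interval below 1, and *Atp6v0b* at 1.39 (0.773 to 2.80).

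Among the hydrolases, *Gla* (chrX:134588149-134601125), the alpha-galactosidase that degrades globotriaosylceramide, had the largest pooled ratio at 4.30 (1.78 to 13.5). It rested on 5 control and 95 AdipoΔ/Δ UMIs, 66 of the latter from lipid-associated cells, and was 1.47 (0.380 to 8.34) in M2-like and 1.97 (0.475 to 17.4) in matrix cells. *Manba*, a beta-mannosidase, had 15.7 and 32.4 CPM, a ratio of 2.07 (1.17 to 4.00), and *Naglu*, an enzyme of heparan sulfate breakdown, 12.0 and 22.1 CPM, a ratio of 1.83 (0.947 to 3.97). *Hexa* had 288 and 480.3 CPM in control and AdipoΔ/Δ macrophage-like cells, a ratio of 1.67 (1.46 to 1.92), with 1.89 (1.58 to 2.29) in M2-like and 1.28 (1.01 to 1.64) in matrix cells. *Psap* and *Gm2a* differed in direction between these subsets. *Psap* had a ratio of 0.893 (0.842 to 0.947) in M2-like and 1.32 (1.23 to 1.42) in matrix cells, and *Gm2a* of 0.760 (0.665 to 0.869) and 1.39 (1.21 to 1.62). The M2-like cells were not alike in both libraries, since their summed macrophage markers were at 9179 CPM in control and 16628 CPM in AdipoΔ/Δ mice. In the part of the M2-like cells led by *Folr2* at a finer resolution (54 and 114 cells), *Psap* had a ratio of 1.35 (1.21 to 1.52) and *Gm2a* 1.73 (1.22 to 2.50), while in the remaining 55 and 64 cells the ratios were 0.826 (0.766 to 0.890) and 0.829 (0.711 to 0.967). At that resolution 116 control and 375 AdipoΔ/Δ cells were macrophage-like, the same numbers as with the remaining cells left out. The remaining cells thus lost the macrophage name there, and their ratios were below 1. The *Folr2*-led part held 195709 of 526393 M2-like UMIs in control and 733790 of 1189761 in AdipoΔ/Δ mice. The part of this make-up in the M2-like ratios of *Psap* and *Gm2a* was not tested.

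*Cd68* was at 269.8 CPM (236 to 308) in control and 697 CPM (669.9 to 724) in AdipoΔ/Δ macrophage-like cells, a ratio of 2.58 (2.25 to 2.97) that was 1.54 (1.29 to 1.86) in M2-like and 1.26 (0.876 to 1.85) in matrix cells. *Npc1* had 31.3 and 63.5 CPM, a ratio of 2.03 (1.35 to 3.17) that was 2.48 (1.42 to 4.62) in M2-like, 1.27 (0.597 to 3.11) in matrix and 0.820 (0.273 to 4.04) in lipid-associated cells, the last from 3 control UMIs. Within the M2-like cells it was 1.33 (0.668 to 2.95) in the *Folr2*-led part and 4.93 (1.92 to 16.2), from 5 control UMIs, in the remaining cells. The ratio of *Lamp1* was 1.37 (1.22 to 1.54) in M2-like and 1.31 (1.08 to 1.60) in matrix cells, that of *Lamp2* 1.55 (1.30 to 1.87) and 1.54 (1.17 to 2.06), and that of *Laptm5* 1.13 (1.02 to 1.25) and 1.25 (1.12 to 1.40). These 3 genes were higher in AdipoΔ/Δ mice in M2-like and matrix cells, by less than 2-fold. In the *Folr2*-led M2-like cells the ratios were 1.52 (1.27 to 1.82), 1.23 (0.981 to 1.56) and 1.22 (1.04 to 1.45). In the remaining M2-like cells they were 1.05 (0.880 to 1.25), 1.39 (1.02 to 1.92) and 1.11 (0.972 to 1.27). The part of cell make-up in the M2-like ratios was not tested. In lipid-associated cells the ratios were 0.684 (0.495 to 0.972) for *Lamp1*, 0.695 (0.383 to 1.41) for *Lamp2* and 1.37 (0.826 to 2.46) for *Laptm5*. The counting intervals of all 4 TFE regulators in macrophage-like cells included 1, with 0.893 (0.615 to 1.33) for *Tfeb*, 1.12 (0.804 to 1.58) for *Tfe3*, 1.27 (0.483 to 4.20) for *Tfec* and 1.42 (0.934 to 2.24) for *Mitf*.

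**Figure D5:**
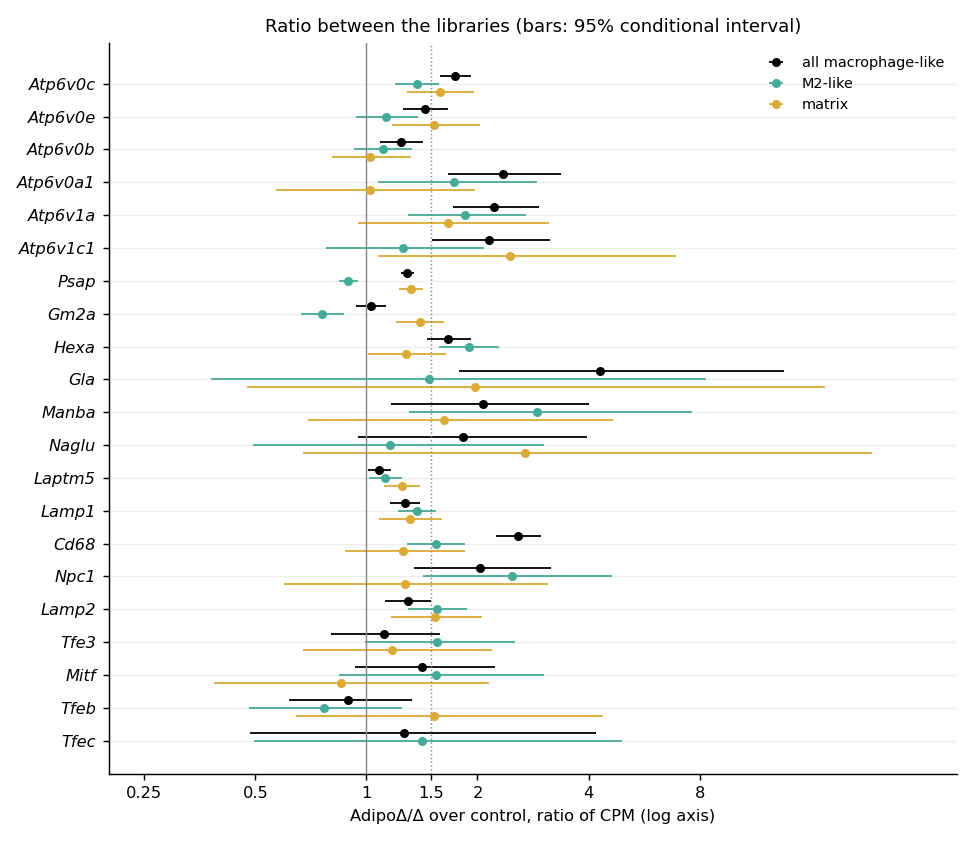
Ratio of AdipoΔ/Δ to control levels (log axis, 95% conditional binomial intervals) of 21 named members in all macrophage-like (black), M2-like (green) and matrix (yellow) cells. The solid line marks 1 and the dotted line 1.5, and *Tfec* has no matrix point because the control cells held 0 UMIs. For *Psap* and *Gm2a* the M2-like points lie below 1 and the matrix points above it.

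Ratios above 1 were not limited to macrophages. In lymphocytes the pump sum was 1.17 (1.13 to 1.22), the hydrolase sum 1.21 (1.14 to 1.28) and the membrane protein sum 1.24 (1.18 to 1.30) times the control level. Neutrophil-like cells had 1.18 (1.11 to 1.26), 1.55 (1.44 to 1.67) and 1.31 (1.20 to 1.44), and Ly6C high monocyte-like cells 1.09 (1.05 to 1.13), 1.09 (1.06 to 1.12) and 1.13 (1.08 to 1.18). In lymphocytes 9 of 46 members were at least 1.5-fold higher (all genes, 10.9%), in neutrophil-like cells 15 of 37 (all genes, 27.3%) and in Ly6C high monocyte-like cells 6 of 47 (all genes, 11.6%). The summed macrophage markers were also higher in AdipoΔ/Δ mice in T cell-like cells, from 44.5 to 123 CPM with 8 of 10 markers detected in each library, and in neutrophil-like cells, from 333 to 663 CPM with 9 and 10 detected. *Psap* was at 542 and 1063 CPM in neutrophil-like cells. The part of free macrophage RNA in these ratios was not tested.

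Further lysosomal genes were read from lists of other enzymes and transporters (20 genes), pump partners (8 genes) and controls of TFE factors by mTORC1 and calcineurin (20 genes, 18 with enough UMIs). Of the first list, 3 were at least 2-fold higher in lipid-associated than in other AdipoΔ/Δ macrophages (all genes, 7.17%). *Lipa*, the acid lipase of lysosomes, was at 876 against 220.4 CPM, a ratio of 3.97 (3.58 to 4.42). *Slc11a1*, a metal transporter of phagosomes, had a ratio of 4.16 (3.59 to 4.83) and *Galns*, a sulfatase of keratan sulfate, of 2.99 (1.82 to 4.96). The 3 genes at least 2-fold lower (all genes, 16.9%), *Ctns*, *Tmem63a* and *Abca2*, had 10, 7 and 5 UMIs in the lipid-associated cells. Of the pump partners, 3 of 8 were at least 2-fold higher (all genes, 7.17%), namely *Tcirg1*, the assembly factor gene *Vma21* at 2.20 (1.76 to 2.75) and *Dmxl2*, whose 10 UMIs left an interval that included 1. Of the controls of TFE factors, *Lamtor5*, part of the lysosomal anchor of mTORC1, had 2.10 (1.73 to 2.55) and *Rheb*, its activator, 2.22 (1.77 to 2.77), while *Ppp3ca*, a catalytic subunit of calcineurin, had 0.440 (0.342 to 0.561).

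Between the libraries, 6 of the 20 other lysosomal genes were at least 1.5-fold higher in AdipoΔ/Δ macrophage-like cells (all genes, 20.9%) and 1 lower (all genes, 9.88%). *Lipa* had the largest of these ratios at 2.64 (2.21 to 3.17), followed by *Slc11a1* at 2.31 (1.83 to 2.95) and *Galns* at 2.30 (1.06 to 5.92), with *Ctns* at 1.75 (0.837 to 4.24), and *Tmem63a* was at 0.619 (0.360 to 1.11). Against the same 20.9% of all genes, 3 of the 8 pump partners were higher, *Tcirg1* at 2.03 (1.43 to 2.97), *Rnasek* at 1.52 (1.28 to 1.83) and *Dmxl2* with 1 control and 20 AdipoΔ/Δ UMIs. Of 18 controls of TFE factors 8 were higher (all genes, 20.9%), among them *Rragc*, a GTPase that recruits TFEB to lysosomes, at 1.85 (1.29 to 2.73) and *Fnip1*, a partner of folliculin, at 2.03 (1.27 to 3.40). *Mtor* itself was at 0.509 (0.275 to 0.983), from 16 control and 36 AdipoΔ/Δ UMIs.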

How the data were processed

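Leukocytes sorted from BAT were sequenced as 1 10x library per group. The deposited values are raw UMI counts per gene and cell barcode, which the authors made with Cell Ranger 4.0.0 on mm10 (per the labels and the methods of the study), and each library is 1 sample. Barcodes were kept where 200 genes or more were detected and mitochondrial genes held no more than 10% of UMIs. The study states a limit of 2%, which was run as an alternative. On the deposited barcodes that limit left 1306 control and 889 AdipoΔ/Δ cells, fewer in each library than the study reports. Libraries were integrated in Seurat 5.3.0 with sctransform 0.4.2 on 1964 of 2000 variable features, after the members and the genes named by the study were removed, with 20 components and resolution 1. Clusters were named where at least 3 markers were detected in at least 10% of cells. Scrublet called 0.308% and 0.252% of cells, too few to rely on, and doublets were left in.

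UMI counts were summed per class and library (control 10753113 and AdipoΔ/Δ 11316418 UMIs in all) and divided by all UMIs of those cells to give CPM. A gene was compared where it had at least 20 UMIs in all cells (macrophage-like against other cells) or over both sides of the comparison, and called past 1.5-fold between libraries or 2-fold between classes. Intervals (SciPy 1.17.1) are exact Poisson for levels, conditional binomial for ratios and Clopper-Pearson for shares, all at 95%. Droplet UMIs are not independent of how cells were captured, so intervals and the floor of 3 UMIs cover counting error only. The calculations were tested on simulated data. The members and gene lists were chosen with earlier results of these data known. Genes named with values are the 3 of each group with the most UMIs in macrophage-like cells, the 3 with the largest library ratio among those with at least 50 UMIs there, the TFE regulators and pump paralogs. Further members were named where a count or a class pattern rests on them, and these were chosen after their values were seen. Promoters were read from RefSeq on GRCm38.p6, and gene positions from GENCODE on GRCm38. Values of some genes in the list of other lysosomal enzymes and transporters are not reported here.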

Additional observations from a re-analysis of the deposited data

Results flagged for a closer look

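*Psap* and *Gm2a* were in opposite directions between the libraries in M2-like and matrix macrophages, with 1 library on each side. For *Psap* the AdipoΔ/Δ over control ratio was 0.893 (0.842 to 0.947) in M2-like and 1.32 (1.23 to 1.42) in matrix cells. For *Gm2a* it was 0.760 (0.665 to 0.869) and 1.39 (1.21 to 1.62). The difference between the subsets was not tested, since each group is 1 library. The *Folr2*-led M2-like cells had ratios above 1 for both genes, at 1.35 (1.21 to 1.52) and 1.73 (1.22 to 2.50), and made up 54 of 109 control and 114 of 178 AdipoΔ/Δ M2-like cells. Only the remaining M2-like cells had ratios below 1, and at the finer resolution those cells were not named macrophage-like.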

How the results depend on the processing

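Of the 4 summed ratios between libraries in macrophage-like cells, those of the pump, hydrolases and membrane proteins stayed above 1 under every alternative run, and that of the TFE regulators, whose interval included 1, was below 1 under one of them. The count of members highest in lipid-associated cells stayed between 24 and 29. With a mitochondrial limit of 2%, 6 members were at least 2-fold higher in control macrophage-like cells (all genes, 14.5%). At that limit 1 was at least 1.5-fold lower in AdipoΔ/Δ mice (all genes, 14.4%) and the hydrolase ratio was 1.39. A limit of 5% gave 1 lower member (all genes, 12.7%) and 1.36, and at least 500 detected genes gave 2 (all genes, 12.8%) and 1.40. Leaving out the highest 4% of Scrublet scores gave 12 members higher between libraries (all genes, 23.9%) and a hydrolase ratio of 1.40. With all 2000 features kept, 2 members were lower (all genes, 12.2%), the hydrolase ratio was 1.39 and the TFE regulator ratio 0.909, against 1.12 as reported. Resolution 2.0 gave a hydrolase ratio of 1.42. Testing genes with at least 1 UMI gave 1 lower member (all genes, 17%). With each cell thinned to 1000 UMIs, 10 members were higher (all genes, 23.8%) and 1 lower (all genes, 9.42%). Only 3641 genes were tested there, against 9026, and the pump and hydrolase ratios were 1.32 and 1.13. Equal subset shares gave 10 higher members (all genes, 28.4%) and ratios of 1.05 for the pump, 1.15 for the hydrolases and 1.20 for the membrane proteins. Scaling by the median ratio over genes gave 1.35, 1.15 and 1.22.

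Among alternatives added after seeing the data, leaving out the lipid-associated subset gave 7 members at least 2-fold higher in AdipoΔ/Δ macrophage-like cells (all genes, 7.30%). It gave 8 members higher between libraries (all genes, 19.1%) and ratios of 1.22, 1.15 and 1.27. Leaving out the matrix subset gave a pump ratio of 1.61. Keeping only the *Folr2*-led part of the M2-like cells, beside the lipid-associated and matrix subsets, gave a hydrolase ratio of 1.42. This left 116 control and 375 AdipoΔ/Δ cells, as many as resolution 2.0 did, so it repeats that setting. Apart from the settings that change which cells or genes enter, the cause was not tested. Leaving out macrophage-like cells without a subset was not run, because every macrophage-like cluster had one. No paired analysis was possible because each group is 1 library, and no library could be left out. Depth limits the 12 lipid-associated control cells, where 3 UMIs correspond to 106 CPM.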
